A study of Homo sapiens with 6 samples.

Results

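The genes described here code for the CDC5L and PRP19 splicing complex and for proteins that join it in the active spliceosome. The 10 members were taken as a fixed list of symbols, CDC5L, PRPF19, PLRG1, BCAS2, CWC15, CTNNBL1, CRNKL1, SYF2, ISY1 and XAB2. All 10 were found among the 20030 genes of the deposited count table, and all 10 were among the 11994 genes with enough reads to be tested. In bulk RNA such as this, fewer cells of a type and less RNA per cell cannot be told apart. The RNA-seq compared 3 IGF2BP1-KD libraries, from cells with IGF2BP1 knocked down, with 3 IGF2BP1-NC libraries, the negative control, all labelled H929. NCI-H929 is a multiple myeloma cell line, and the study looked for mRNA targets of IGF2BP1, an RNA-binding protein that reads the N6-methyladenosine (m6A) mark. Its methods describe lentiviral transduction and puromycin selection of stable lines, with the knockdown shRNA driven by a U6 promoter. The labels number the libraries of each group without saying whether they came from separate cultures, so each p-value measures only the spread between these libraries, which may be technical.

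The PRP19 complex joins the spliceosome as it is activated and stays through both catalytic steps, where it steadies the contacts among the small nuclear RNAs and the intron. PRPF19 is its ubiquitin ligase and CDC5L a Myb-related scaffold protein to which PLRG1, BCAS2, CWC15 and CTNNBL1 attach. The complex is also known for roles in the DNA damage response, and CDC5L for a role in mitotic progression.

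The libraries held between 16885449 and 18112179 gene counts each. Log2 CPM (counts scaled by library total and TMM factors) correlated across genes with r between 0.987 and 0.995 within a group and between 0.968 and 0.980 across groups, a description in which genes are not independent replicates. IGF2BP1 itself checked the group labels: its level was 431, 401 and 451 CPM in IGF2BP1-NC and 123, 117 and 115 CPM in IGF2BP1-KD, a log2 fold change of -1.85 (SE 0.065, edgeR adjusted p = 4.81e-08). The cell type label was checked against marker lists and the data went against it. Of 10 plasma cell markers, only 3 were above 1 CPM in every library, and IRF4, TNFRSF17, CD38 and POU2AF1 had at most 3 counts in each of the 6 libraries. All 9 erythroid markers were above 1 CPM in every library, and the embryonic globin gene HBE1 had 78172 to 95239 counts. Summed plasma cell markers came to 78.2 to 160.2 CPM in IGF2BP1-NC and 81.0 to 86.6 CPM in IGF2BP1-KD, and summed erythroid markers to 6723 to 7706 CPM and 6967 to 7673 CPM. Most of the plasma cell sum in each library was XBP1, at 1181 to 2689 counts, with 2689 in IGF2BP1-NC 1. Of all genes tested, 13.7% were called higher in IGF2BP1-KD and 14.5% lower. Among the 5 plasma cell markers tested 1 was called higher (SLAMF7) and 0 lower. Among the 9 erythroid markers tested 1 was higher (SLC4A1) and 4 were lower (HBG2, GATA1, KLF1 and TAL1). The part of these differences in the results below was not tested, and the values are those of the libraries labelled H929.

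Because CDC5L is the mRNA the study followed as a candidate IGF2BP1 target, its sequence is shown first. CDC5L lies on chromosome 6 (GRCh38, 44387706 to 44450425, plus strand) and its canonical GENCODE transcript has 16 exons and 802 coding codons. A few windows of its coding sequence hold a form of the m6A consensus, GGACT or GAACT, given in capitals with 12 bases on either side. The first is the exon 6 site that the study altered in its m6A mutant, and the other two hold the GGACT form.
CDC5L exon 6, chr6:44403825-44403853, plus strand: caaaaaagaagaGAACTtcgagcagctgg
CDC5L exon 9, chr6:44419488-44419516, plus strand: ccattgaaaggtGGACTtaataccccatt
CDC5L junction of exons 9 and 10: ctactccattcaGGACTccttctaatgga
The coding sequence of CDC5L held 7 GAACT and 2 GGACT matches. Its 2.91 GAACT matches per kb stood at the 93.6th percentile of the 11503 tested genes with an annotated coding sequence, whose median was 0.958 per kb. GGACT stood at the 43.9th percentile, with a median of 0.969 per kb. Among the 10 members 6 held GGACT (11 matches) and all 10 held GAACT (29 matches), against 74.7% and 72.1% of the genes searched. Holding a match depends on coding length, which was 675 to 2565 bases among the members, and lengths were not matched in these shares. Other forms of the consensus were not searched. A match is a string of letters only, and methylation and IGF2BP1 binding at these places were not analysed here.

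The promoters of the 4 members whose mRNA passed the test are shown because 2 of these mRNAs were higher and 2 lower in IGF2BP1-KD. Each is the RefSeq stretch (GRCh38.p14) of 250 bases before to 50 bases after the annotated start, read 5′ to 3′ on the gene's strand. Capitals mark GC boxes (GGGCGG), the ETS motif CCGGAAG and CCAAT boxes, searched on both strands. Adjoining capitals in the SYF2 promoter are an ETS match followed at once by a GC box.
CDC5L, chr6:44387456-44387755, plus strand: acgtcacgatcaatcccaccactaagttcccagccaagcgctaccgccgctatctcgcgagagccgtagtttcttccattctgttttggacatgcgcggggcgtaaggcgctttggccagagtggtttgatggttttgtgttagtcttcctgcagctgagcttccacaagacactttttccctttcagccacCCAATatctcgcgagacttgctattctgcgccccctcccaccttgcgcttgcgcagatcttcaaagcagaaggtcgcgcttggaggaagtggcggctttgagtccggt
SYF2, chr1:25232453-25232752, minus strand: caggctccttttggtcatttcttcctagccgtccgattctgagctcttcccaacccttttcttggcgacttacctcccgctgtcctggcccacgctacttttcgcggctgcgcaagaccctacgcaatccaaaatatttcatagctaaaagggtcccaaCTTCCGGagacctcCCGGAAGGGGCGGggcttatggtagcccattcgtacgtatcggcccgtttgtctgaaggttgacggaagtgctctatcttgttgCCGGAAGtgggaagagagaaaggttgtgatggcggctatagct
PLRG1, chr4:154550351-154550650, minus strand: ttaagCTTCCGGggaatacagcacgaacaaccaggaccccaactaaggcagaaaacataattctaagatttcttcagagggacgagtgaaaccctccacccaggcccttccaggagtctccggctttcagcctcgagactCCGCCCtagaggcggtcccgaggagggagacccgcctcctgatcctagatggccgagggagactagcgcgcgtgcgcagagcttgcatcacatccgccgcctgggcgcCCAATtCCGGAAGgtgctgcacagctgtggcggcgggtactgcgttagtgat
CTNNBL1, chr20:37693780-37694079, plus strand: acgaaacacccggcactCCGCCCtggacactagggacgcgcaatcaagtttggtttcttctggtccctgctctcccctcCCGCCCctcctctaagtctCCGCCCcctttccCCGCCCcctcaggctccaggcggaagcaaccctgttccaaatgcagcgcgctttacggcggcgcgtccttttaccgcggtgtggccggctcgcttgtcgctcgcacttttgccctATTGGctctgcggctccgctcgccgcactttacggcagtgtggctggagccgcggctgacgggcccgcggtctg
The CDC5L promoter had 1 CCAAT box and neither of the other motifs. SYF2 had 3 ETS matches and 1 GC box, PLRG1 had 2 ETS matches, 1 GC box and 1 CCAAT box, and CTNNBL1 had 4 GC boxes and 1 CCAAT box. A GC box was found in 6 of the 10 members' promoters, ETS in 5 and CCAAT in 6, against 59.2%, 14.4% and 36.2% of 14994 promoters of listed genes. Those promoters include genes with too few reads to be tested, whereas all 10 members were tested, so the shares are not of like sets.

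By level per gene length (FPKM, the deposited level scaled by length and library total), PRPF19 was far above the rest and ISY1 lowest. The length implied by FPKM was near the canonical transcript's for PRPF19 (2341 against 2337 bases). It was longer for CTNNBL1 (2289 against 1890) and CWC15 (1801 against 1522), so the order of members close in level depends on the length used. In IGF2BP1-NC, PRPF19 was at 131 ± 9.60 FPKM and ISY1 at 2.97 ± 0.162 FPKM (SD, n = 3), a 44.2-fold span. ISY1 shares 912 exon bases with the readthrough gene ISY1-RAB43, and how reads there were counted is not known. The level and last rank of ISY1, and this span, are therefore uncertain. PRPF19 gave 35.8% to 40.0% of the members' summed FPKM in the 6 libraries. Between them came BCAS2 (41.0 ± 2.76 FPKM), XAB2 (37.2 ± 2.68), CWC15 (31.5 ± 4.12), SYF2 (30.5 ± 1.17), PLRG1 (27.3 ± 3.78), CTNNBL1 (20.7 ± 0.624), CDC5L (19.3 ± 0.695) and CRNKL1 (6.41 ± 0.377), in that order. Ranges over the 3 control libraries overlapped between the neighbours BCAS2 and XAB2, CWC15 and SYF2, and SYF2 and PLRG1, so those neighbours were not separated by their spread. In IGF2BP1-KD the order was PRPF19, BCAS2, SYF2, CWC15, XAB2, PLRG1, CDC5L, CTNNBL1, CRNKL1 and ISY1, with overlap between SYF2 and CWC15 and between PLRG1 and CDC5L. CDC5L ranked 8 in each control library and 7, 7 and 6 in the knockdown libraries. Together the members took 0.0859% to 0.0933% of all counts.

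**Figure D1:**
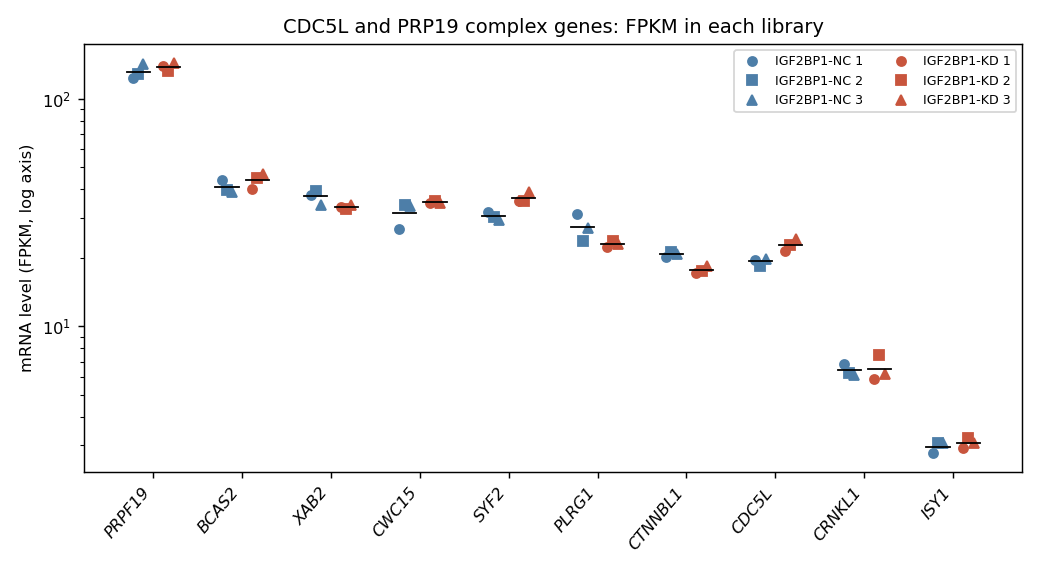
FPKM of each member (vertical axis, log scale) in the 3 IGF2BP1-NC libraries (blue) and the 3 IGF2BP1-KD libraries (red), with symbols for the library number and a black bar at the group mean. PRPF19 lies above 120 FPKM and ISY1 near 3 FPKM in every library, and CDC5L, SYF2 and CWC15 are the members whose red points all lie above the blue.

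Knockdown of IGF2BP1 was accompanied by small changes in 4 of the 10 members. CDC5L and SYF2 rose, PLRG1 and CTNNBL1 fell, and 6 members did not pass the test (edgeR quasi-likelihood, adjusted p under 0.05). The largest rise was 1.20-fold (SYF2) and the largest fall 0.837-fold (PLRG1). Of all genes tested 28.2% were called, 13.7% higher and 14.5% lower, so 28.2% of 10 genes would be between 2 and 3 and the members' count was near that background. No member changed by at least 2-fold, against 4.73% of genes called at that size. CPM did not overlap between the groups for 6 members, 3 higher and 3 lower, against 45.6% of genes tested. The members' median log2 fold change was 0.05 (range -0.26 to 0.26), beside a median of -0.0048 over all genes tested. The counts were lower in several fits without 1 library, which also have fewer samples. Over all genes tested, those fits called 1144 to 1929 higher and 1146 to 2062 lower, against 1648 and 1738 with all libraries. Without IGF2BP1-NC 2 or IGF2BP1-KD 2, 1 member was called higher. Without IGF2BP1-KD 3 there were 0, with the 2 called members at edgeR adjusted p 0.0733 (CDC5L) and 0.0604 (SYF2). Leaving out IGF2BP1-NC 3, IGF2BP1-KD 1 or IGF2BP1-KD 2 left 0 members lower, and leaving out any other library left 1.

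**Figure D2:**
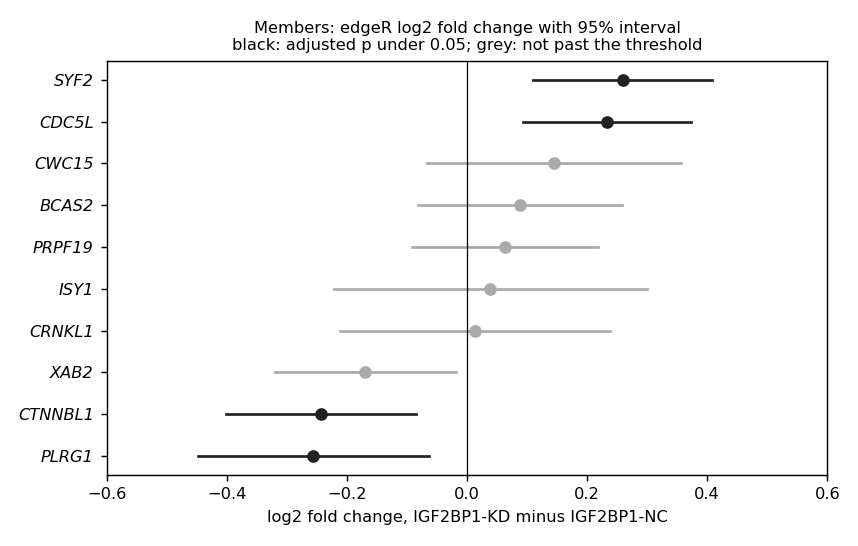
Log2 fold change of each member, IGF2BP1-KD minus IGF2BP1-NC (horizontal axis), as the edgeR estimate (point) with its 95% interval (line). Black marks the 4 members past an adjusted p of 0.05 and grey the 6 that were not, and every estimate lies between -0.26 and 0.26.

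CDC5L, the scaffold of the complex, was at 124, 120.4 and 129 CPM in IGF2BP1-NC and at 138, 146 and 155 CPM in IGF2BP1-KD. Each knockdown library was above each control library, and the groups did not overlap. The log2 fold change was 0.23 (SE 0.0639, 95% interval 0.09 to 0.37), or 1.18-fold, with an edgeR adjusted p of 0.0192. The direction held in all 16 alternatives, which gave log2 fold changes of 0.19 to 0.28, but the call was lost without IGF2BP1-NC 2 (adjusted p = 0.0685), IGF2BP1-KD 2 (0.0641) or IGF2BP1-KD 3 (0.0733). Per length the level was 19.3 ± 0.695 FPKM in IGF2BP1-NC and 22.8 ± 1.42 FPKM in IGF2BP1-KD (SD, n = 3). CDC5L made up 5.37% to 5.68% of the members' summed FPKM in the controls and 6.08% to 6.52% in the knockdown libraries, without overlap. The study's own claim concerns IGF2BP1 binding to CDC5L mRNA and the level of CDC5L protein. It reported more of the protein with IGF2BP1 overexpression in NCI-H929 and less with knockdown in RPMI-8226. It found no effect of IGF2BP1 on CDC5L mRNA stability. Protein was not measured in these libraries, so the mRNA rise does not test that claim.

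PRPF19, the ubiquitin ligase at the core of the complex (chromosome 11, 60890547 to 60906585, minus strand, GRCh38), was at 285.5, 304 and 337 CPM in IGF2BP1-NC and 327, 308 and 333 CPM in IGF2BP1-KD. The groups overlapped, and the log2 fold change of 0.06 (95% interval -0.09 to 0.22) did not pass the test (edgeR adjusted p = 0.542).

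PLRG1, a WD40 repeat protein that binds CDC5L (chromosome 4, 154535005 to 154550400, minus strand, GRCh38), was at 103.5, 80.4 and 92.0 CPM in IGF2BP1-NC and 75.0, 79.1 and 76.9 CPM in IGF2BP1-KD. Every knockdown library lay below every control library in CPM, by little where IGF2BP1-NC 2 and IGF2BP1-KD 2 were nearest, and in FPKM those libraries, 23.647 and 23.650, overlapped. The log2 fold change was -0.26 (SE 0.0875, 95% interval -0.45 to -0.06) with an edgeR adjusted p of 0.0484, close to the threshold. Omitting a library ended the call in every case but IGF2BP1-NC 2 (adjusted p = 0.0175 to 0.144 over the 6 fits), and 2 of 10 other settings kept it.

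BCAS2, also called SPF27, and CWC15, a small core component, did not pass the test. BCAS2 lies on chromosome 1 (114567557 to 114581629, minus strand, GRCh38) and CWC15 on chromosome 11 (94962620 to 94973586, minus strand). BCAS2 was at 56.8, 52.5 and 51.5 CPM in IGF2BP1-NC and 52.3, 58.3 and 60.4 CPM in IGF2BP1-KD, and the groups overlapped (log2 fold change 0.09, 95% interval -0.08 to 0.26, edgeR adjusted p = 0.428). CWC15 was at 47.5, 61.9 and 61.5 CPM against 62.7, 63.8 and 62.5 CPM, without overlap. IGF2BP1-NC 1 was low for CWC15, and without it the log2 fold change went from 0.14 (edgeR adjusted p = 0.286) to 0.03.

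CTNNBL1, an armadillo-type protein that binds CDC5L (chromosome 20, 37693955 to 37872129, plus strand, GRCh38), was at 45.4, 49.4 and 48.1 CPM in IGF2BP1-NC and 39.2, 39.8 and 41.7 CPM in IGF2BP1-KD. The groups did not overlap, and the lowest control was above the highest knockdown library. The log2 fold change was -0.24 (SE 0.0720, 95% interval -0.40 to -0.08), or 0.845-fold, with an edgeR adjusted p of 0.0271. It remained below 0 in every alternative, and the call was lost without IGF2BP1-NC 2 (adjusted p = 0.0927), IGF2BP1-NC 3 (0.0693), IGF2BP1-KD 1 (0.101) or IGF2BP1-KD 2 (0.0941), and was 0.0510 with DESeq2.

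Of the proteins that accompany the complex in the catalytic spliceosome, SYF2 rose and the others did not pass the test. SYF2, a small protein of the first-step spliceosome (chromosome 1, 25222276 to 25232502, minus strand, GRCh38), was at 55.8, 54.3 and 53.0 CPM in IGF2BP1-NC and 63.1, 63.3 and 68.8 CPM in IGF2BP1-KD. The groups did not overlap, and the knockdown libraries were all higher. The log2 fold change was 0.26 (SE 0.0679, 95% interval 0.11 to 0.41), or 1.20-fold, with an edgeR adjusted p of 0.0156. Omitting IGF2BP1-KD 3 ended the call (adjusted p = 0.0604), while omitting any other library, or using any of 10 other settings, did not. CRNKL1, a tetratricopeptide-like repeat protein (chromosome 20, 20034368 to 20056046, minus strand, GRCh38), was at 29.9, 27.9 and 27.5 CPM in IGF2BP1-NC and 25.9, 33.0 and 27.1 CPM in IGF2BP1-KD, with overlapping groups (log2 fold change 0.01, 95% interval -0.21 to 0.24, edgeR adjusted p = 0.934). CFAP61, which lies on the opposite strand of the CRNKL1 locus and shares no exon base with it, had at most 2 counts in each library. The small RNA genes MIR4642, within CDC5L, and RNU6-1285P, within PLRG1, share no exon base with them and were not analysed here.

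ISY1, a splicing factor of the first step (chromosome 3, 129127415 to 129161063, minus strand, GRCh38), had 10.6, 11.9 and 11.9 CPM in IGF2BP1-NC and 11.2, 12.3 and 11.8 CPM in IGF2BP1-KD, overlapping, at 185 to 213 counts per library. Its log2 fold change was 0.04 (95% interval -0.22 to 0.30, edgeR adjusted p = 0.832). The readthrough gene ISY1-RAB43, on the same strand and sharing 912 exon bases with ISY1, was listed at 0 in all 6 libraries, so how its reads were shared with ISY1 is uncertain. XAB2, a repeat protein known for transcription-coupled DNA repair as well as splicing (chromosome 19, 7619525 to 7629545, minus strand, GRCh38), was at 99.5, 106 and 92.2 CPM in IGF2BP1-NC and 88.5, 86.3 and 90.0 CPM in IGF2BP1-KD. Its groups did not overlap, but the log2 fold change of -0.17 (95% interval -0.32 to -0.02) did not pass the test (edgeR adjusted p = 0.0862).

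**Figure D3:**
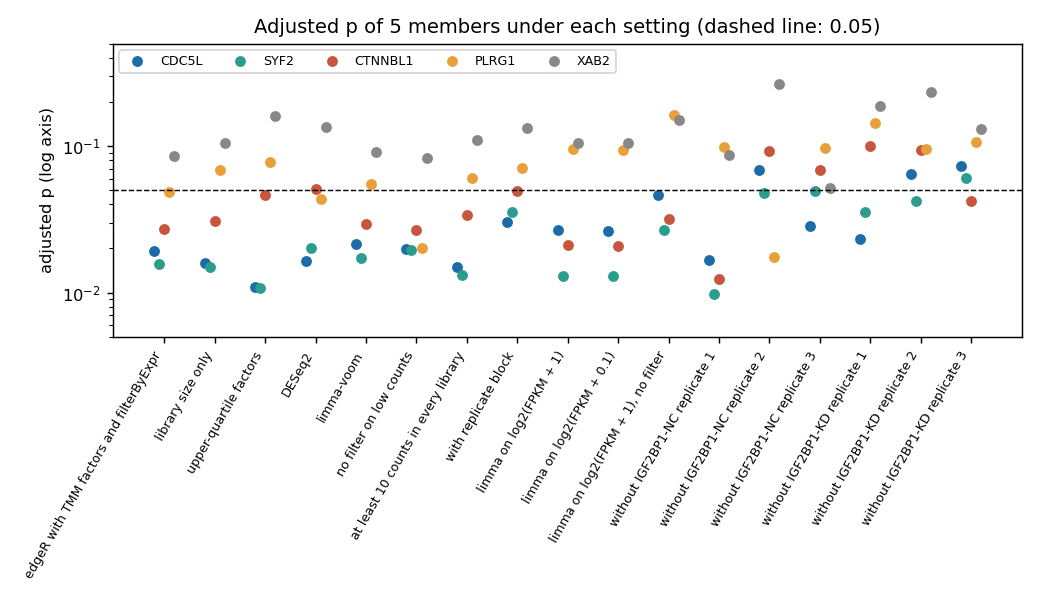
Adjusted p (vertical axis, log scale) of CDC5L, SYF2, CTNNBL1, PLRG1 and XAB2 under the main setting and each of 16 alternatives (horizontal axis), with the dashed line at 0.05. CDC5L and SYF2 lie under the line in every setting that keeps all libraries, and PLRG1 lies near or above it in most.

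The ratio of each partner to CDC5L, by FPKM within a library, had a lower mean in IGF2BP1-KD for 8 of 9 partners, all of which share the CDC5L value. Of the other 11993 tested genes 78.2% also had a lower mean ratio to CDC5L, so the partners' count was near that background. PLRG1 was 1.595, 1.28 and 1.36 times CDC5L in IGF2BP1-NC and 1.04, 1.04 and 0.949 times in IGF2BP1-KD. CTNNBL1 was 1.03, 1.15 and 1.05 times CDC5L, then 0.797, 0.767 and 0.755 times. The ratios of 4 partners (PLRG1, CTNNBL1, ISY1 and XAB2) did not overlap between the groups, against 55.8% of those genes. Their exact two-sided permutation p was 0.1, the smallest that 3 against 3 can give, and 0.225 adjusted over the 9 ratios. XAB2 went from a ratio of 1.93 ± 0.202 to 1.46 ± 0.0788 and ISY1 from 0.154 ± 0.0116 to 0.135 ± 0.00744 (SD, n = 3). PRPF19 went from 6.80 ± 0.442 to 6.06 ± 0.384 with overlap, and SYF2, the 1 partner whose ratio was not lower, from 1.58 ± 0.0815 to 1.61 ± 0.0432. Without each library in turn, 4 to 6 ratios did not overlap, a count that leaving out a library cannot lower.

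**Figure D4:**
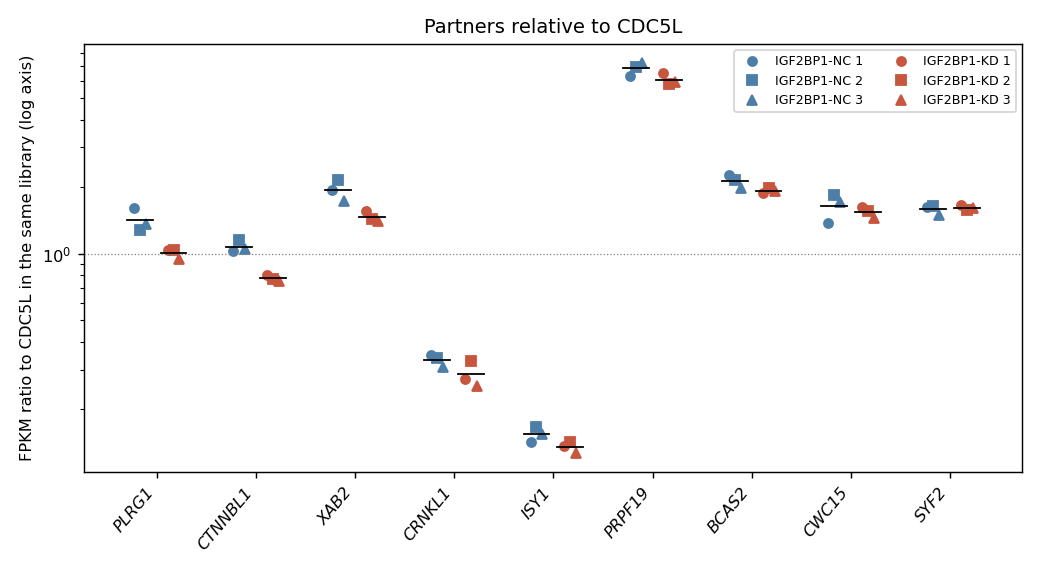
FPKM of each partner divided by that of CDC5L in the same library (vertical axis, log scale), in IGF2BP1-NC (blue) and IGF2BP1-KD (red), with black bars at group means and a dotted line at equal level. PLRG1 and CTNNBL1 lie at or above the CDC5L level in each control library and PLRG1 near it and CTNNBL1 below it in the knockdown libraries.

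The level pattern of CDC5L over the 6 libraries was compared with that of 9283 genes. The 5 closest, by the root mean square difference of centred log2 CPM, were CBLL1 (0.0230), FNBP4 (0.0237), ANKRD13A (0.0265), NFAT5 (0.0285) and SP3 (0.0311), against a median of 0.179 over the genes compared. SYF2 was the member nearest to it, at rank 74 (0.0507), followed by BCAS2 at rank 1039. PLRG1 stood at rank 7123 and CTNNBL1 at 6738. This measure takes in each gene's log2 fold change, which was 0.19 to 0.23 for the 5 closest and 0.23 for CDC5L. Those 5 were picked from all the genes compared, so the ranks are a description and not separate evidence of shared behaviour.

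Partners of the complex were taken from 3 lists. Of 10 PRP19-related and intron-binding partners, 1 rose and 3 fell, against 13.7% and 14.5% of all genes tested, with a median log2 fold change of -0.04. HSPA8, a heat shock chaperone found with the complex, was at 1939, 2915 and 3081 CPM in IGF2BP1-NC and 4808, 4800 and 4686 CPM in IGF2BP1-KD, with a log2 fold change of 0.85 (SE 0.173, edgeR adjusted p = 0.0154). IGF2BP1-NC 1 was the lowest, no group overlapped the other, and the call was lost without IGF2BP1-KD 3 (adjusted p = 0.0525). AQR, the intron-binding helicase that works beside XAB2, was at 147, 141 and 149 CPM and then 115, 120.0 and 115 CPM (log2 fold change -0.32, SE 0.057, edgeR adjusted p = 0.00252). SNW1, an activation-step factor, was at 116, 104 and 102 CPM and then 89.7, 90.9 and 86.2 CPM (-0.27, SE 0.068, adjusted p = 0.0129). PPIL1, a cyclophilin that binds SNW1, was at 159, 159.6 and 158 CPM and then 137, 137 and 134 CPM (-0.23, SE 0.054, adjusted p = 0.0101). AQR, SNW1 and PPIL1 kept their calls whichever library was omitted and in 10 other settings. PPIE, BUD31, RBM22, CDC40, CCDC12 and ZNF830 did not pass.

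Of 12 U5 and catalytic-step factors, 2 rose, 1 fell and 9 did not pass, with a median log2 fold change of -0.03. The 3 calls were near the 28.2% of all genes tested that were called. PRPF18, a second-step factor, was at 34.0, 33.1 and 34.5 CPM and then 41.5, 42.7 and 45.0 CPM (log2 fold change 0.35, SE 0.073, edgeR adjusted p = 0.00563), without overlap. DHX8, the helicase that releases the spliced mRNA, rose by 0.24 on the log2 scale (edgeR adjusted p = 0.0161), a call lost without IGF2BP1-NC 2 (0.0511), IGF2BP1-KD 2 (0.0505) or IGF2BP1-KD 3 (0.0537). DHX15, a helicase of spliceosome disassembly, fell by 0.23 on the log2 scale (adjusted p = 0.0128), a call lost without IGF2BP1-KD 3 (0.0541). Of the core U5 proteins, PRPF8, SNRNP200 and SNRNP40 had log2 fold changes of -0.02, 0.04 and 0.03. EFTUD2, the U5 GTPase, was at 359, 383 and 382 CPM and then 343, 326 and 333 CPM, without overlap. Its log2 fold change of -0.17 (SE 0.0578) missed the threshold (edgeR adjusted p = 0.0517), which it passed in 4 of 10 other settings and without IGF2BP1-NC 1.

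Of 12 partners in the DNA damage response and in the ubiquitin switch of the tri-snRNP, 1 rose, 0 fell and 11 did not pass, with a median log2 fold change of -0.03. By calls in the main fit this was below the 28.2% of all genes tested that were called (13.7% higher and 14.5% lower). Over the 16 alternatives 0 to 3 of the list were called higher, the 3 with another scaling, so that reading depends on the setting. By overlap the list was not below all genes: CPM did not overlap between the groups for 4 partners that were higher and 6 that were lower, against 45.6% of genes tested. ERCC6, a repair protein of stalled transcription, was at 26.3, 20.5 and 26.1 CPM and then 32.4, 33.5 and 31.0 CPM (log2 fold change 0.41, SE 0.104, edgeR adjusted p = 0.0137), and the groups did not overlap. Its call was lost without IGF2BP1-KD 2 (adjusted p = 0.0576). ATR, the kinase reported to bind CDC5L, had a log2 fold change of -0.01 and its partner ATRIP -0.01. USP15 and USP4, deubiquitinases that act on targets of PRPF19, had 0.18 (adjusted p = 0.0547) and 0.20 (0.0746).

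**Figure D5:**
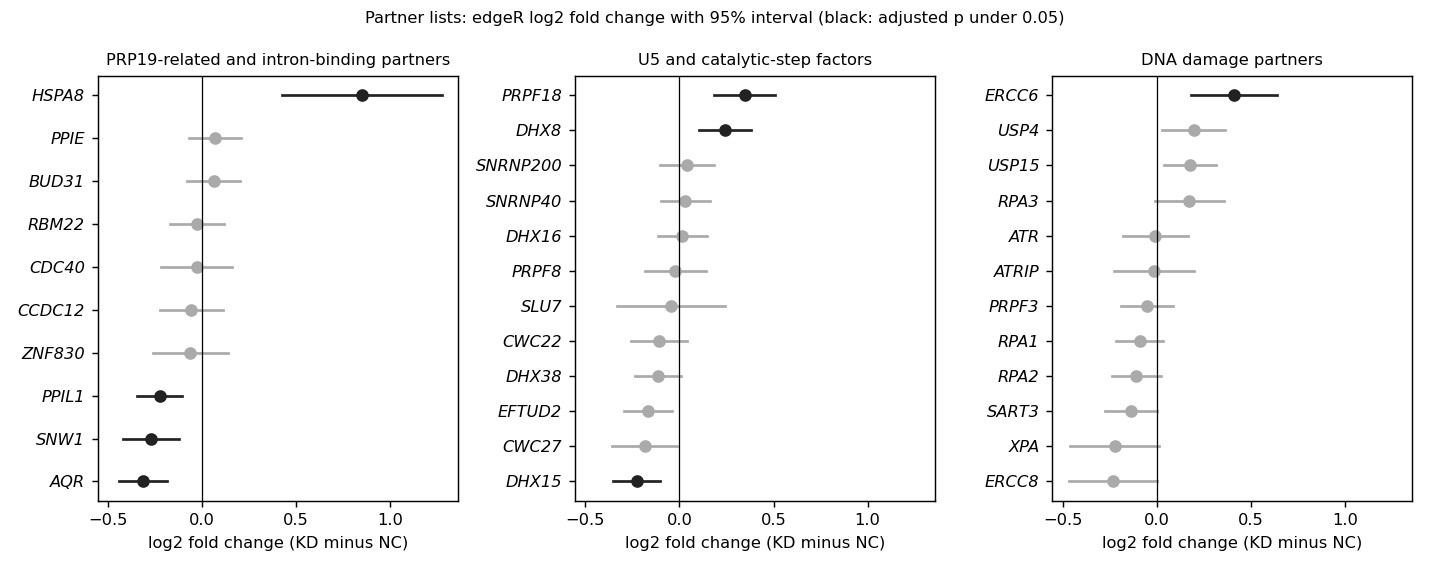
The 3 partner lists: log2 fold change, IGF2BP1-KD minus IGF2BP1-NC (horizontal axis), with 95% interval for each gene, black where the adjusted p was under 0.05 and grey otherwise. HSPA8, at 0.85, lies beyond all others, and AQR, SNW1, PPIL1 and DHX15 are the genes called lower.

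All 10 members carry the deposited KEGG term Spliceosome, which 133 listed genes have. Of the 129 tested, 11 were higher and 31 lower, against 13.7% and 14.5% of all genes, with a median log2 fold change of -0.05. Without the members 9 of 119 were higher and 29 lower.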

How the data were processed

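RNA-seq libraries of cells labelled H929 were compared, 3 IGF2BP1-KD and 3 IGF2BP1-NC. Per the submitters' processing notes, Trimmomatic, HISAT2, HTSeq and Cufflinks and the build GRCh38 were used, and the kit was a stranded mRNA kit. Versions and the strand setting are not given in the sources used here. The authors deposited a table of raw read counts per gene. The authors also deposited FPKM values, which equal the counts scaled by gene length and library total and are no independent measurement.

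Counts were tested with edgeR 4.0.16 (R 4.3.3; TMM factors, filterByExpr, robust quasi-likelihood test, Benjamini-Hochberg adjustment over 11994 genes, threshold 0.05). CPM used TMM-scaled library totals. Levels of different genes were compared only in FPKM. Gene models came from GENCODE release 44. Ratios used the exact permutation test. Scripts were tested on simulated data, with larger changes than those of the members and less spread than in these libraries. That test does not cover calls of the members' size. DESeq2 1.42.0, limma 3.58.1 (voom, and log2(FPKM + 1) or log2(FPKM + 0.1)), other scaling, other filters, a replicate block and fits without each library were alternatives. In 27 rows of the FPKM table the symbols had turned into dates and were matched by row order. The rule for named genes took all members, IGF2BP1, each called gene of a partner list, the 5 genes most like CDC5L and genes overlapping a member. Marker genes and the uncalled partner genes named beside them fall outside it and were chosen after their values were seen. The members and lists were chosen with earlier results of these data known. Of the erythroid marker list, 1 gene is not reported here and was left out of its counts and sums.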

Additional observations from a re-analysis of the deposited data

How the results depend on the processing

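Over 16 alternatives and 10 members, 135 of 160 log2 fold changes kept their direction and side of the threshold, 22 lost the call, 0 gained one and 3 changed sign, none of them called. The 135 include members that had no call to lose. Calls were lost for PLRG1 in 13 of 16 alternatives, CTNNBL1 in 5, CDC5L in 3 and SYF2 in 1. CRNKL1 ran from -0.099 (without IGF2BP1-KD 2, and -0.0085 without IGF2BP1-NC 3) to 0.084 over the fits without 1 library, and ISY1 from -0.016 (without IGF2BP1-NC 1) to 0.075. The count of members called lower fell from 2 to 1 with library size only, upper-quartile factors, DESeq2, limma-voom, at least 10 counts in every library, the replicate block and all 3 limma settings on FPKM. Replicate numbers did not pair the libraries (correlations of deviations -0.052, 0.036 and -0.106); with the block, PLRG1 had adjusted p = 0.0709 and members lower came to 1. PRP19-related partners called higher came to 0 with no filter on low counts. U5 and catalytic-step factors called lower came to 2 with library size only, limma-voom, log2(FPKM + 1) and log2(FPKM + 0.1). DNA damage partners called higher came to 2 with library size only, at least 10 counts, log2(FPKM + 1) and log2(FPKM + 0.1), to 3 with upper-quartile factors and to 0 with log2(FPKM + 1) and no filter. Without each library in turn, genes called higher ranged from 1144 to 1929 and lower from 1146 to 2062, members higher from 0 to 2 and lower from 0 to 1, PRP19-related partners higher from 0 to 1, U5 and catalytic-step factors higher from 1 to 2 and lower from 0 to 2, and DNA damage partners higher from 0 to 2. The cause of these shifts was not tested, except that fits without a library have fewer samples. Leaving out a library for the ratios to CDC5L was chosen after the data were seen. Depth and 3 libraries per group, with a biological coefficient of variation of 9.55%, limit how small a change could be called.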
